A study of Mus musculus with 33 samples.

Results

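The regions described here are 2539 autosomal windows in which calvarial-derived osteoblasts (calvarial-OB) kept part of the DNA methylation score of tail-tip fibroblasts. They were chosen from a table of 9743 differentially methylated windows of 100 bp, of which 7726 lie on chromosomes 1 to 19. A window was a member if its mean relative methylation score in calvarial-OB was at least 0.5 times the fibroblast score and below it. The members are 32.9% of the autosomal windows and cover 253900 bp. The fibroblast and calvarial-OB scores made the choice, so their values below are descriptions with no test.

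The series has 33 mouse samples: 15 RNA libraries in 5 groups of 3, 9 libraries of methylation-enriched DNA in 3 groups of 3, and an input library for each of those 9. The fibroblasts, and so the iOB made from them, carry Col2.3GFP, a reporter in which part of the type I collagen promoter switches on GFP in cells of the osteoblast lineage. Fibroblasts were tail-tip cells expanded over passages. Induced osteoblasts (iOB) were such fibroblasts after 24 hours with lentivirus carrying transcription factor genes, with osteogenic medium from day 5. Calvarial-OB came from calvarial progenitor cells, the bone-forming precursors of the skull vault, and are labelled as undergoing osteoblast differentiation. The labels give no age, sex or strain, no separate genotype for calvarial-OB, and no group with control virus. The RNA libraries of calvarial-OB carry a second dataset label, and a difference between datasets there cannot be told apart from one between cell types. Nothing in the labels says that replicates came from separate animals.

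In mammals, DNA methylation is placed mainly on cytosines followed by guanine. Dnmt3 enzymes set it on unmethylated DNA, and Dnmt1 with Uhrf1 copies it to the new strand at replication. It is lost when copying fails or when Tet enzymes oxidise it. Patterns of the mark differ between cell types. In the assay, proteins with a methyl-CpG-binding domain pulled methylated fragments of 100 to 350 bp from 100 ng of sonicated DNA. The authors summarised each window by a relative methylation score, whose formula is not given in the sources used here. Its lowest value in the table was 0, and its highest value in the members was 0.757. A window is shorter than many of the captured fragments, so windows lying side by side share fragments.

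The scores were intermediate in calvarial-OB. Over the members the median score was 0.453 in fibroblasts (quartiles 0.423 and 0.547) and 0.33 in calvarial-OB (quartiles 0.285 and 0.365). The median ratio of calvarial-OB to fibroblast was 0.669, and the median fall was 0.145 score units. The fall was at least 0.2 in 825 members (32.5%) and under 0.05 in 277 (10.9%). The table holds 1 mean per group with no spread per library, so none of these differences can be set against replicate error. This also limits the description "reduced": 47 members fell by no more than 0.01, the step in which the scores appear to be recorded.

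**Figure D1:**
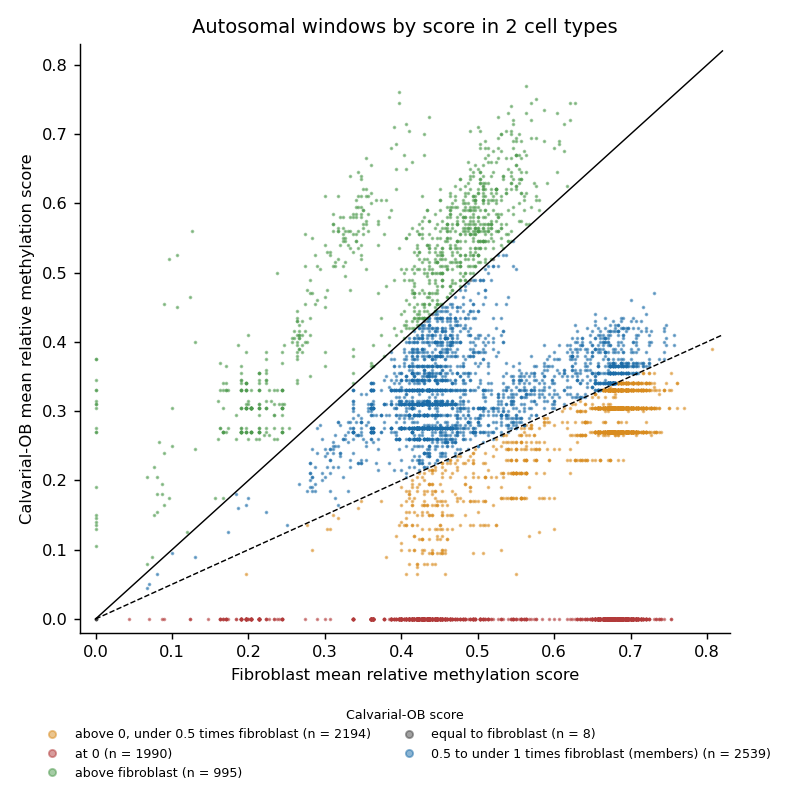
Mean relative methylation score in fibroblasts (x axis) and calvarial-OB (y axis) for each autosomal window of the table, 1 point per window, coloured by class. The solid line marks equal scores and the dashed line a calvarial-OB score of 0.5 times fibroblast, and the 2539 members lie between them.

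Most members fell into a main group and a smaller one by fibroblast score. In 1429 members (56.3%) the fibroblast score lay from 0.4 to under 0.5, and in 323 (12.7%) it lay from 0.65 to under 0.7. These are also the fullest ranges of all autosomal windows, with 2553 and 2781 windows. Members made up 56.0% of the autosomal windows in the lower range and 11.6% of those in the upper range.

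Among the members, the calvarial-OB score rose less than the fibroblast score across ranges of the latter, within the limits set by the rule. Its median was 0.285 where fibroblasts scored 0.3 to under 0.4, 0.31 at 0.4 to under 0.5, and 0.325 at 0.5 to under 0.6. It was 0.36 at 0.6 to under 0.65, 0.355 at 0.65 to under 0.7, and 0.385 from 0.7 upwards. The ratio fell over the same ranges, from a median of 0.802 to 0.721, 0.591, 0.578 and 0.532, and was 0.536 in the last. In all, 2079 members (81.9%) had a calvarial-OB score from 0.25 to under 0.4. Across the 2539 members the correlation of the 2 scores was 0.49 (Pearson's r, and 0.48 as Spearman's rho). The medians, the ratios and the correlation are descriptions, because the rule bounds one score by the other. At 0.65 to under 0.7 only 11.6% of the autosomal windows passed the rule, and the median ratio of 0.532 lies near its bound of 0.5.

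**Figure D2:**
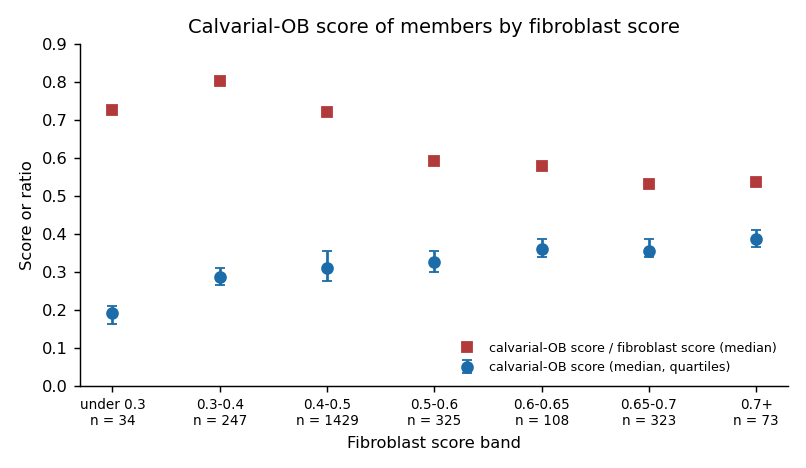
Calvarial-OB score of the members (circles, median with quartiles) and its ratio to the fibroblast score (squares, median) in 7 ranges of the fibroblast score. From 0.3 upwards the calvarial-OB medians stay between 0.285 and 0.385 while the ratio goes from 0.802 to about 0.53. The rule holds the ratio of every member from 0.5 to under 1, so both trends are descriptions.

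Windows above 0 but under 0.5 times fibroblast, 2194 in number with a median ratio of 0.436, had a median calvarial-OB score of 0.28, against 0.33 in the members. Their median fibroblast score was 0.677, against 0.453. The 1990 windows at 0 in calvarial-OB had a fibroblast median of 0.67, and the 995 windows that scored above fibroblasts had one of 0.44. By these medians the members lay near the gaining windows in fibroblasts and near the strongly reduced ones in calvarial-OB. This comparison carries no test, since both scores define the classes.

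Calvarial-OB scores repeated a few values. The commonest were 0.275 in 251 members, 0.31 in 239, 0.33 in 194, 0.34 in 122 and 0.355 in 120, which together make 36.5% of the members. The recorded means fell on different grids: every fibroblast mean of the table lay on a grid of 3 steps per 0.01, and every iOB and calvarial-OB mean on one of 2 steps per 0.01 (tolerance 0.001 of a step). Averages of 3 scores recorded to 0.01 give the first grid, and averages of 2 such scores the second, whereas the labels list 3 enriched libraries in each group. Which libraries entered is not stated. In calvarial-OB, an intermediate mean from like scores in both libraries therefore cannot be told apart from a score in only 1 of them. Likewise, a fibroblast mean from like scores cannot be told apart from scores in only some of the libraries. This includes the fibroblast means from 0.4 to under 0.5 that most members had.

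**Figure D3:**
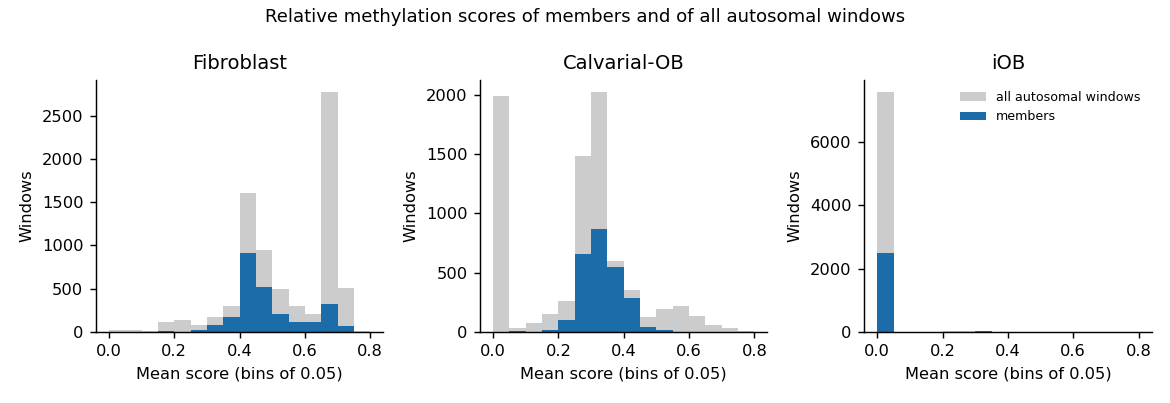
Number of windows (y axis, a separate scale in each panel) by mean score in bins of 0.05 (x axis) in fibroblasts, calvarial-OB and iOB. Blue bars are the 2539 members and grey bars all 7726 autosomal windows, and 2507 members lie at 0 in iOB.

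The ends of the rule show what its bounds separate. At the lower bound, 24 members stood at exactly 0.5, among them chr1:194896901-194897000 (mm9) with 0.5 in fibroblasts and 0.25 in calvarial-OB. Just outside it, chr14:54560201-54560300 had 0.683 and 0.34, a ratio of 0.498. At the upper bound, 11 members differed from fibroblasts by 0.00167, the smallest step that the 2 grids allow. One was chr5:43462001-43462100, with 0.547 in fibroblasts and 0.545 in calvarial-OB. Outside that bound, chr17:81561401-81561500 had 0.533 and 0.535. In these windows on either side of the upper bound, calvarial-OB thus differed from fibroblasts by less than a recorded step of 0.01.

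The highest fibroblast scores among the members were 0.757 at chr1:133577401-133577500 and at chr12:88939001-88939100, where calvarial-OB scored 0.395 and 0.41. At the first locus, after a gap of 100 bp, the window chr1:133577601-133577700 had 0.747 and 0.395. The largest fall was at chr4:90643701-90643800, from 0.743 to 0.375. All 4 windows scored 0 in iOB. Positions are those of the deposited table, in the mm9 build named in the submitters' processing notes. The genes and bases at these positions were not analysed here.

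The iOB score was the measure that the rule did not use. It was 0 in 2507 members (98.7%) and lay below the fibroblast score in 2521 (99.3%). Of all autosomal windows, 98.9% had an iOB score below fibroblasts, so the members did not stand out by this count. The share at 0 in iOB was 99.8% in the strongly reduced windows, 99.4% in those at 0 in calvarial-OB and 92.1% in those that gained. The authors selected the table as differentially methylated without a stated contrast, and a table picked for low iOB scores would show the same. Where iOB was at 0 it lay below calvarial-OB by the rule itself, which keeps calvarial-OB above 0.

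A partial iOB score was rare. In 14 members iOB lay above 0 and below fibroblasts, with scores of 0.195 to 0.345 where fibroblasts had 0.507 to 0.693. In each of the 14 the iOB score was under 0.5 times fibroblast, so the rule placed calvarial-OB above it. The nearest to fibroblasts was chr6:116430301-116430400, with 0.693 in fibroblasts, 0.37 in calvarial-OB and 0.345 in iOB, which is 0.498 times fibroblast in iOB. Next came chr6:106265501-106265600, with 0.64, 0.37 and 0.31. At chr14:53632501-53632600 the scores were 0.653, 0.345 and 0.31. In these 3 windows the calvarial-OB and iOB means lay closer to each other than to the fibroblast mean. The iOB means lie on the same grid as those of calvarial-OB. A partial iOB mean from like scores thus cannot be told apart from a higher score in only some of the libraries. Closeness of the means therefore need not hold in each library.

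In 18 members, iOB scored above fibroblasts while calvarial-OB scored below them. That is 0.709% of the members, beside 0.945% of all autosomal windows. These 18 windows form 10 loci when windows up to 100 bp apart are joined, and 6 of the loci are single windows. Their fibroblast scores were low, 0.0667 to 0.307. Of the 45 members with a fibroblast score under 0.31, iOB was above fibroblasts in these 18 and at 0 in the other 27. No member with a higher fibroblast score had iOB above fibroblasts. Only 32 members had any iOB score above 0, and a low fibroblast score is easier to exceed, so this split is a description.

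Of these loci, 2 held 4 windows each, the most of any. At chr8:72405801-72406200 fibroblasts scored 0.267, 0.283, 0.25 and 0.13 along it, calvarial-OB 0.195, 0.185, 0.135 and 0.09, and iOB 0.65, 0.675, 0.64 and 0.375. At chr4:145617501-145618000 the 4 windows had 0.183 to 0.2 in fibroblasts, 0.16 to 0.18 in calvarial-OB and 0.31 to 0.325 in iOB. A single window at chr10:50215001-50215100 had 0.1, 0.095 and 0.65, an iOB score of 6.5 times fibroblast and the highest ratio in the set. At chr3:54654401-54654600, the first of 2 windows had 0.223, 0.155 and 0.575. At these loci fibroblasts and calvarial-OB both scored low, and the iOB score was the high one.

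The members were spread over all 19 autosomes. Counts ran from 43 on chromosome 19 to 206 on chromosome 7, and the members' share of a chromosome's windows ran from 30.2% on chromosome 3 to 38.1% on chromosome 19. The median ratio per chromosome lay between 0.624 on chromosome 17 and 0.71 on chromosome 15. Chromosome X differed: 259 of its 1852 windows (14.0%) would meet the rule, while 42.6% scored higher in calvarial-OB than in fibroblasts and 21.0% had equal scores, against 12.9% and 0.104% on the autosomes. No test was made, because windows are not independent replicates. In the RNA libraries Xist, the RNA of the inactive X, was at 22.8 to 144 CPM (counts scaled to the TMM-adjusted library total) in calvarial-OB and at most 0.166 in the others, while the Y-linked gene Ddx3y was at 65.7 CPM or more in all 9. The part of sex in the window scores was not tested.

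**Figure D4:**
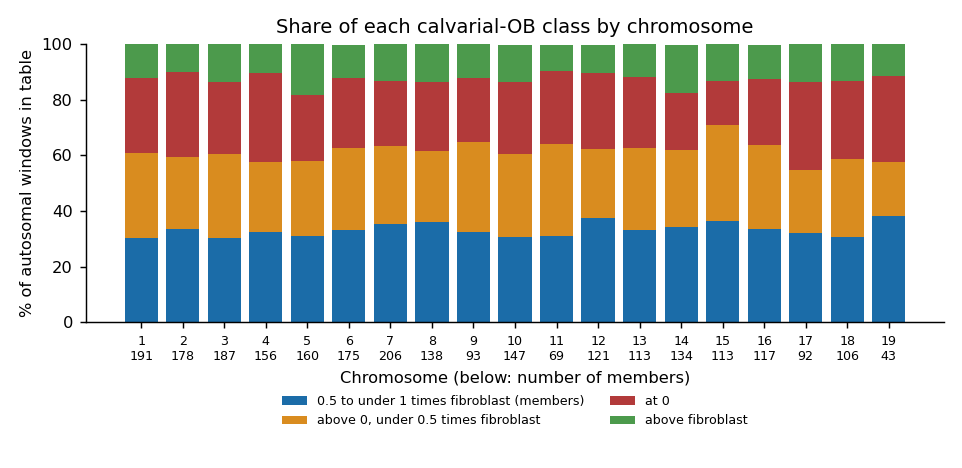
Share of each chromosome's windows in the table (y axis, %) by calvarial-OB class, for chromosomes 1 to 19, with the number of members under each bar. The members' share (lowest segment) lies between 30.2% and 38.1% on every autosome.

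In bins of 1 Mb, 1130 of the 1799 autosomal bins with any window held a member, with a median of 2. The most in a bin was 12, at chr14:106000001-107000000, where they were 12 of 15 windows, and at chr2:23000001-24000000, where they were 12 of 21. Bins of 11 were found at chr7:13000001-14000000, of 14 windows, and at chr7:62000001-63000000, of 23 windows. Chromosome 7 also had the most members per Mb, 1.36 up to its last window, and chromosome 11 the fewest, 0.574. Members made up 35.2% of the 585 windows on chromosome 7 and 30.9% of the 223 on chromosome 11. The share over all autosomal windows was 32.9%.

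Most members stood alone or in short stretches. Joining directly adjacent members gave 1933 loci, of which 1537 were single windows, 277 were pairs, 62 had 3 windows and 57 had 4 or more. The longest was chr7:122961401-122962200, with 8 windows. Along it fibroblasts scored 0.473, 0.47, 0.617, 0.483, 0.623, 0.5, 0.593 and 0.43, and calvarial-OB scored 0.3, 0.28, 0.395, 0.29, 0.385, 0.29, 0.38 and 0.26. The ratio stayed between 0.58 and 0.641 while both scores rose and fell together, and iOB was at 0 throughout.

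The next longest was chr1:47054201-47054900, with 7 windows. Its fibroblast scores were 0.407, 0.38, 0.517, 0.533, 0.53, 0.487 and 0.5, and its calvarial-OB scores 0.325, 0.295, 0.305, 0.32, 0.295, 0.285 and 0.305. Here calvarial-OB was nearly flat, and the ratio went from 0.799 at the first window to 0.557 at the fifth. The window directly before this stretch, outside the rule, had 0.263 in fibroblasts and 0.41 in calvarial-OB, so a gain and a partial fall lay side by side. Other stretches, of 6 windows each, were at chr14:23941101-23941700, chr14:62880401-62881000, chr14:106505401-106506000, chr17:55979501-55980100, chr5:50058701-50059300 and chr7:88020501-88021100. In the chromosome 5 stretch iOB reached 0.31, and in the others it was at 0. At chr7:88020501-88021100 the ratio stayed between 0.57 and 0.678. At chr17:55979501-55980100 it ran from 0.557 to 0.969 with fibroblast scores of only 0.457 to 0.53.

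Neighbours of other classes were common. Of the members, 1607 (63.3%) had a directly adjacent window in the table: 1002 (39.5%) had another member beside them, 401 (15.8%) a strongly reduced window, 324 (12.8%) a window that gained, and 60 (2.36%) a window at 0 in calvarial-OB. For the windows at 0 themselves, 39.6% had a neighbour of their own class and 2.81% a member. Of the strongly reduced windows, 35.9% had a neighbour of their own class and 18.0% a member. The windows that gained had 49.5% and 32.8%, so mixed neighbours were not particular to the members. Of 875 stretches of 2 or more adjacent windows that held a member, 251 held only members, 624 were mixed and 254 held a window that gained. When scores were averaged over each stretch, 629 of the 875 (71.9%) met the rule, 156 fell under 0.5 times fibroblast and 90 were at or above fibroblast. The 251 stretches of members alone are among the 629 and could not fail the rule, and every stretch was picked for holding a member. These counts are therefore descriptions. Between directly adjacent members (606 pairs) the scores differed by a median of 0.0567 in fibroblasts and 0.045 in calvarial-OB.

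RNA libraries of the same cell types give the levels of the genes that write, read and erase the mark. They were 9 libraries of 5646299 to 15023771 counts, 3 each of fibroblast, calvarial-OB and iOB, and are not the libraries behind the scores. Values are CPM, and genes were called at an adjusted p below 0.05 by edgeR's quasi-likelihood test over 13438 genes. Of 27 listed genes, 25 were tested. Against fibroblasts, 9 were higher and 6 lower in calvarial-OB, where 55.8% of all genes were called (28.4% higher and 27.4% lower), with a median log2 fold change of 0.25 (0.02 over all genes). In iOB, 3 were higher and 10 lower, where 43.3% of all genes were called (22.7% and 20.6%), with a median of -0.27 (-0.04 over all genes); a fit of those 2 groups alone called 6 higher. In iOB against calvarial-OB, 2 were higher and 12 lower, where 48.8% of all genes were called (24.7% and 24.1%), and 4 were higher without calvarial-OB replicate 1. These comparisons share libraries.

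Among the writers, the maintenance enzyme gene Dnmt1 stood at 63.2, 74.8 and 76.6 CPM in the 3 fibroblast libraries, 73.0, 78.7 and 71.3 in calvarial-OB, and 43.1, 51.1 and 52.2 in iOB. Fibroblasts and calvarial-OB overlapped (log2 fold change 0.06 ± 0.11, SE, n = 3 libraries a group, edgeR adjusted p = 0.70), and iOB lay below both, with log2 fold changes of -0.55 ± 0.11 against fibroblasts (edgeR adjusted p = 0.0022) and -0.61 ± 0.11 against calvarial-OB (edgeR adjusted p = 0.0010). Its partner Uhrf1, which guides it to newly copied DNA, had 31.5, 31.6 and 35.3 CPM in fibroblasts, 26.2, 46.9 and 37.8 in calvarial-OB, and 8.47, 9.17 and 14.4 in iOB. It fell by 1.63 ± 0.23 on the log2 scale in iOB (edgeR adjusted p = 1.5e-04), and its value of 0.17 ± 0.21 in calvarial-OB was not called (edgeR adjusted p = 0.51). The de novo enzyme gene Dnmt3a went the other way: 43.9, 35.1 and 30.3 CPM in fibroblasts, 94.6, 73.9 and 67.9 in calvarial-OB, and 77.1, 65.3 and 66.3 in iOB. It rose by 1.11 ± 0.16 in calvarial-OB (edgeR adjusted p = 9.7e-05) and by 0.93 ± 0.16 in iOB (edgeR adjusted p = 5.8e-04), with no overlap with fibroblasts.

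Of the oxidising enzymes, Tet1 had 7.44, 7.22 and 4.07 CPM in fibroblasts, 11.99, 10.3 and 10.7 in calvarial-OB, and 3.78, 5.28 and 5.73 in iOB. It rose in calvarial-OB by 0.83 ± 0.24 (edgeR adjusted p = 0.011), and in iOB its log2 fold change of -0.32 ± 0.26 was not called (edgeR adjusted p = 0.34). Tet3 had 66.1, 67.4 and 56.7 CPM in fibroblasts, 58.6, 40.1 and 36.1 in calvarial-OB, and 41.3, 42.3 and 38.4 in iOB. It fell by 0.50 ± 0.16 in calvarial-OB, where 1 library overlapped the fibroblasts, and by 0.64 ± 0.16 in iOB (edgeR adjusted p = 0.019 and 0.0077). The call in calvarial-OB was lost without calvarial-OB replicate 2 or 3 or fibroblast replicate 1 or 2 (edgeR adjusted p = 0.095, 0.097, 0.055 and 0.082). Tet2, with log2 fold changes of -0.13 ± 0.18 and 0.03 ± 0.18, was not called in either (edgeR adjusted p = 0.57 and 0.92). The cytidine deaminase gene Apobec1 rose by 2.64 ± 0.19 in calvarial-OB and 2.20 ± 0.19 in iOB (edgeR adjusted p = 3.4e-07 and 2.6e-06). Among readers, Mbd2, which binds methylated CpG, rose by 0.54 ± 0.10 and 0.44 ± 0.10 (edgeR adjusted p = 8.3e-04 and 0.0048), and the zinc finger reader Zbtb38 fell by 1.71 ± 0.12 and 0.56 ± 0.11 (edgeR adjusted p = 2.9e-07 and 0.0018).

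Maintenance of the mark depends on replication. Of 4 replication genes, 1 was higher and 1 lower in calvarial-OB than in fibroblasts, where 28.4% and 27.4% of all genes were. In iOB 2 were lower than in fibroblasts, where 20.6% of all genes were. The sliding clamp gene Pcna had 52.9, 59.1 and 61.6 CPM in fibroblasts, 107.9, 120.1 and 142.0 in calvarial-OB, and 62.6, 62.2 and 55.1 in iOB. It rose by 1.09 ± 0.12 in calvarial-OB (edgeR adjusted p = 1.2e-05) and was not called in iOB against fibroblasts (0.05 ± 0.12, edgeR adjusted p = 0.76). Hells, a chromatin remodeller that methylation of repeats needs, and Mki67, a proliferation marker, fell in iOB by 1.21 ± 0.25 and 2.20 ± 0.20 (edgeR adjusted p = 0.0019 and 4.3e-06). In calvarial-OB Mki67 fell by 0.54 ± 0.19 (edgeR adjusted p = 0.028). It did not pass the threshold without calvarial-OB replicate 1 or fibroblast replicate 2 or 3 (edgeR adjusted p = 0.066, 0.065 and 0.118) and with upper-quartile scaling (0.057). Whether any of these levels bears on the window scores was not tested.

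**Figure D5:**
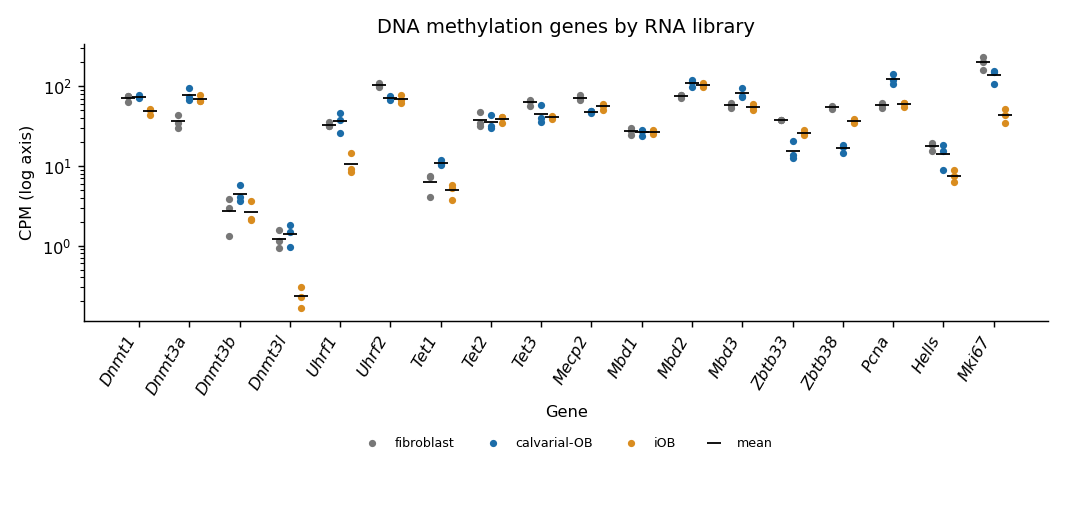
Level of 18 DNA methylation genes in CPM (y axis, log scale) in each of 3 fibroblast, 3 calvarial-OB and 3 iOB libraries (points), with the mean of each group (bars). Dnmt3a is higher in both osteoblast cultures than in fibroblasts, and Uhrf1 and Mki67 are lowest in iOB.

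Scores and RNA levels are averages over all cells of a culture, in which fewer cells of a type and less signal per cell cannot be told apart. Against the labels, all 11 osteoblast markers were higher in both osteoblast cultures than in fibroblasts, where 28.4% and 22.7% of all genes were higher. In iOB against calvarial-OB, 3 of the 11 were higher (Alpl, Sp7 and Runx2) and 5 lower, where 24.7% and 24.1% of all genes were. Sp7 and Runx2 encode transcription factors, and whether RNA from the virus adds to their counts in iOB was not tested. The 10 fibroblast markers were divided, with 4 higher and 5 lower in calvarial-OB and 3 higher and 6 lower in iOB. Of all genes, 27.4% were lower in calvarial-OB and 20.6% in iOB. Fap, Dcn and Lum were higher in both cultures. Of 14 macrophage markers tested, all were higher in calvarial-OB and in iOB, with summed levels of 38.1 to 78.8 CPM in fibroblasts, 3541 to 6451 in calvarial-OB and 2173 to 3522 in iOB, and none at 0 in any group. Of 9 adipocyte markers tested, all were higher in calvarial-OB, and 8 were higher and 1 lower in iOB, with sums of 152 to 168 CPM in fibroblasts, 1208 to 1932 in calvarial-OB and 315 to 376 in iOB; Adipoq, Cfd, Cidec, Retn and Lep had no counts in fibroblasts. Most of the macrophage sum in iOB was Lyz2, at 1378 to 2204 CPM. Against calvarial-OB, 9 of the 14 macrophage markers were lower in iOB and 0 higher, where 24.1% of all genes were lower. Most of the adipocyte sum in iOB was Lpl, at 254 to 308 CPM. Cfd, Cidec, Retn and Plin1 were at 1.72 CPM or less in every iOB library. Adipoq stood at 12.1, 14.1 and 12.3 CPM in the iOB libraries, and Fabp4 was the 1 marker lower in iOB than in fibroblasts. Endothelial markers summed to at most 13.2 CPM and keratinocyte markers to at most 4.90 in any library. The part of these cells in the window scores or in the gene levels above was not tested.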

How the data were processed

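The authors deposited mean relative methylation scores per group and window. The score's scale, the use of the inputs, the selection test and the depth are not given in the sources used here. The authors also deposited counts per gene symbol for 9 RNA libraries; the counting tool and strand setting are not stated, so genes that overlap or resemble each other are uncertain. Per the submitters' processing notes the build was mm9 and the tools included Bowtie2, STAR 2.4.2a, R 3.2.2 and DESeq2, with no roles given. The OB columns were read as calvarial-OB. The authors' own result tables were not used.

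Windows were classed in Python 3.11.15 (pandas 2.3.3) without a test. Counts were fitted with edgeR 4.0.16 in R 4.3.3: TMM, filterByExpr (13438 of 17982 genes), group as the only term, quasi-likelihood test, Benjamini-Hochberg adjustment over all genes. The SE is the log2 fold change divided by the root of F. The fit was tested on simulated data. Alternatives were upper-quartile and DESeq2 scaling, DESeq2 1.42.0, no filter, 2 groups only, a replicate block, and other bounds of the rule. Each library of the 2 groups compared was also left out in turn, but not those of the third group. P-values measure the spread between these libraries, which may be technical.

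Windows were named by rank: highest score, largest fall, nearest to a bound, longest stretch, extreme iOB ratio. Loci with iOB above fibroblasts, the densest bins and the commonest scores were chosen after their values were seen. Genes come from a list of the methylation machinery. The windows and lists were chosen with earlier results of these data known. No sequence is printed because no genome of the mm9 build was used here.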

Additional observations from a re-analysis of the deposited data

How the results depend on the processing

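Keeping windows with a fibroblast score at or above the autosomal median of 0.543 left 651 members, of which 100% had iOB below fibroblasts; with chromosomes X and Y the share was 97.3%. The number of members was 1765 with a lower bound of 0.6, 2445 with an upper bound of 0.95 and 2808 with chromosomes X and Y. The median ratio of iOB to fibroblast was 0 in each of these sets. Joining members within 500 or 1000 bp gave 1739 or 1721 loci.

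Genes called numbered 7494, 5820 and 6561 for calvarial-OB against fibroblast, iOB against fibroblast and iOB against calvarial-OB. Every alternative stayed within 1.5 times these. Leaving out 1 library of the 2 groups compared gave 6580 to 7825, 4717 to 5125 and 5435 to 7205. Of the genes whose values are given with a test, only Tet3 and Mki67 in calvarial-OB against fibroblast lost a call under the alternatives run, and none gained one. Values that were not called changed sign for Tet2 in calvarial-OB (-0.32 to 0.067 over the libraries left out) and in iOB (-0.058 to 0.22), and for 3 others: Uhrf1 in calvarial-OB without calvarial-OB replicate 2 (-0.010, range -0.010 to 0.35 over the libraries left out), Dnmt1 in calvarial-OB without fibroblast replicate 1 (-0.031 to 0.11) and Pcna in iOB without fibroblast replicate 1 (-0.014 to 0.14). The listed genes higher in iOB numbered 6 in a fit of those 2 groups alone, not 3.

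The replicate number as a block gave 7364, 5614 and 6303 calls. Same-numbered libraries of calvarial-OB and fibroblast deviated together with correlations of 0.15, -0.01 and 0.15, and not every library matched its own number best, so the numbers were not taken as pairs. No alternative gives the window scores a replicate error.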
